A study of Rattus norvegicus with 6 samples.

Results

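The solute carrier genes (symbols beginning with Slc and a digit) that spinal cord of rats with a mutant superoxide dismutase 1 gene expressed at a measurable level are described here across 3 stages of disease. Of 276 solute carrier symbols on the array, 181 genes (183 probes) were detected at a detection p-value below 0.01 on at least 1 of 6 arrays and form the set, out of 8752 such genes in all. Slc18a3, Slc1a2, Slc32a1 and Slc6a5 were set apart from the set by name and appear once below. Of the 181 genes, 119 were detected on all 6 arrays, 44 on 2 to 5 arrays and 18 on 1 array; 10 were detected on mutant arrays only and 12 on WT arrays only. The lowest detection p was 0.00985 for Slc26a5 and 0.00979 for Slc30a10, just inside the limit, and 0.0147 for Slc25a21 and 0.0184 for Slc18a2, just outside it. The other 95 genes, among them the cystine-glutamate exchanger Slc7a11 and the vesicular glutamate transporter Slc17a7, were not detected, so no level is given for them.

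Solute carriers are membrane proteins that move amino acids, sugars, ions, metals, nucleotides and lipids across the plasma membrane and the membranes of organelles, by facilitated diffusion or by coupling to an ion gradient. In spinal cord they return glutamate, glycine, GABA and choline to neurons and astrocytes, set the chloride gradient that makes inhibition work, and carry fuel across the blood-spinal cord barrier. Other members sit in lysosomes and phagosomes of phagocytes or in the inner mitochondrial membrane.

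Each array held 1 pool of RNA from 5 female Sprague-Dawley rats, 30 rats in all, and the groups were SOD1 G93A rats, a model of amyotrophic lateral sclerosis, and wild-type (WT) littermates matched for age and sex, each sampled presymptomatically, when disease began and at its end stage. The study's design text gives an age of 10 weeks for the presymptomatic rats, whereas the labels give that age to all 6 pools, and the labels name both lumbar and thoracic cord, so neither later ages nor the segment is used here. The promoter and the line of the transgene are not given in the sources used here. With 1 pool per genotype and stage there was no replicate of any group, and the number of arrays limits the precision.

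Every gene name below rests on a correction of the probe order. As deposited, probes for sensory receptors, which cord should largely lack, were detected on all 6 arrays for 37.8% of 1304 probes, and ribosomal, respiratory chain and proteasome probes for 42.4% of 170. After the probe IDs were sorted as text the shares were 1.38% and 88.2%, and that order was used. Detected probes per array ranged from 9116 in the mutant pool to 10942 in the WT pool, both of the presymptomatic stage. Over 12711 detected probes the mutant pools correlated with the WT pools at 0.955 to 0.972 (presymptomatic), 0.968 to 0.982 (onset) and 0.95 to 0.964 (end stage), against 0.982 to 0.986 between WT pools. Counts of called members without the presymptomatic mutant pool, which had the fewest detected probes, were the same in the comparisons of the later mutant pools, with 5 calls at end stage, 1 at onset and 8 for both together when the other 5 arrays were normalized alone, an alternative chosen after seeing the data. The presymptomatic mutant pool formed its own group in these fits. Leaving it out could thus act only through the normalization and the choice of kept probes. Neuron, oligodendrocyte and microglia markers were all present.

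The median member differed little between mutant and WT pools. Levels are log2 normalized intensities and differences are mutant minus WT on that scale, where 1 unit is 2-fold; an offset of 16 intensity units was added before the log, which understates changes of dim genes. The median stage-matched difference over the 181 genes was 0.00 at the presymptomatic stage, -0.03 at onset and -0.09 at end stage, beside 0.07, -0.03 and -0.04 over all 8752 genes. At the presymptomatic stage 4 of 161 compared members were at least 2-fold higher in the mutant pool and 19 at least 2-fold lower, where all genes gave 2.74% higher and 8.15% lower. At onset 8 of 160 were at least 2-fold higher (3.63% of all genes) and 1 at least 2-fold lower (0.567%), and at end stage 8 of 167 were higher (6.86%) and 6 lower (3.39%). Pairs of WT pools gave 5, 5 and 4 members at least 2-fold apart in either direction (1.93%, 2.09% and 3.5% of all genes), so single members near 2-fold lie within the spread of WT pools. By sign alone 81 of 161, 78 of 160 and 67 of 167 members were higher over the stages, where all genes gave 55.3%, 46% and 47.1%. A comparison of 1 pool with 1 has no test.

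**Figure D1:**
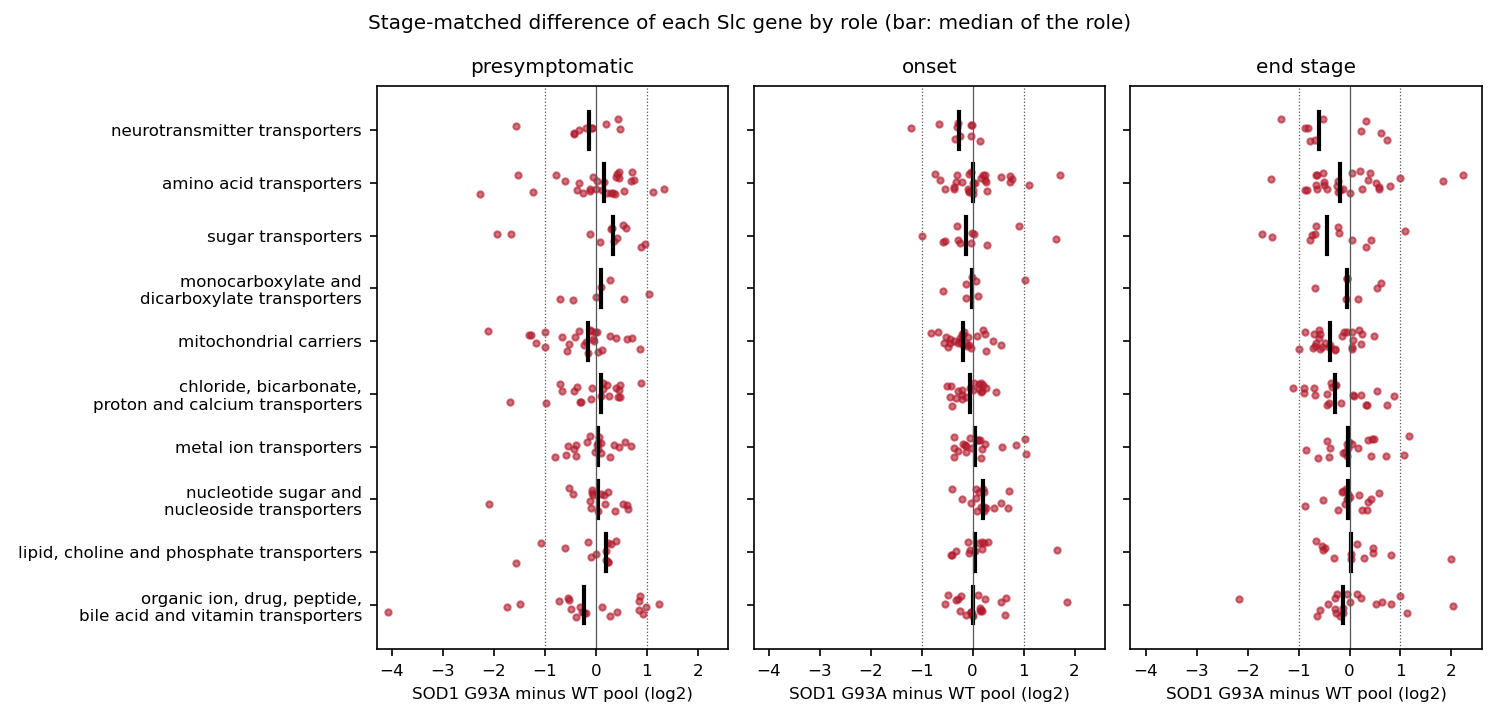
Stage-matched difference (SOD1 G93A minus WT pool, log2) of each solute carrier gene, with 1 panel per stage and 1 row per transport role. Each point is a gene, the black bar is the median of the role, and dotted lines mark 2-fold. Most roles centre within 0.3 of 0; neurotransmitter transporters (-0.60), sugar transporters (-0.44) and mitochondrial carriers (-0.39) lie lowest at end stage.

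The clearest change was a rise of 6 genes in the symptomatic cord. Most of them are transporters known from phagocytes, by a list chosen with earlier results of these data known. Both symptomatic mutant pools (onset and end stage) were compared with the 3 WT pools by limma, with Benjamini-Hochberg adjustment over 12711 probes and a threshold of 0.05 ("called"). The comparison called 6 of 181 members higher (3.72% of all genes) and 2 lower (0.331%). The 6 were Slc7a7, Slc15a3, Slc37a2, Slc2a5, Slc11a1 and Slc66a3, and the 2 were Slc7a10 and Slc2a6. The share called higher among the members, 3.31%, is near that of all genes. Without adjustment, a p below 0.05 was reached by 41 members in this comparison (18.4% of all genes), and against the same WT pools by 41 in the presymptomatic (17.2%), 31 in the onset (13%) and 47 in the end-stage mutant pool (21.6%). All 3 mutant pools lay above all WT pools for 13 members (8.11% of all genes) and below them for 20 (6.73%). In bulk tissue a change in the number of cells of a type and a change in RNA per cell cannot be told apart.

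Slc7a7 is the light chain of an exchanger of cationic and neutral amino acids and pairs with the heavy chain Slc3a2. Its levels were 6.09, 7.72 and 8.22 in the presymptomatic, onset and end-stage mutant pools, against 5.76, 6.01 and 6.0 in the WT pools of those stages. Both symptomatic mutant pools lay above all WT pools, and the presymptomatic mutant pool lay just above them. The fitted difference of the symptomatic pools was 2.04 ± 0.22 (SE; 4.13-fold, limma adjusted p = 0.00273). It was called as well in the end-stage pool alone (2.29 ± 0.24, limma adjusted p = 0.00836) and in the onset pool alone (1.80 ± 0.24, limma adjusted p = 0.0324), both set against the same 3 WT pools. Slc7a7 was the only member called at onset, where 0.811% of all genes were called higher and 0% lower. The heavy chain Slc3a2 had 11.58, 11.41 and 11.72 in the mutant pools and 11.36, 11.16 and 11.35 in the WT pools; all 3 mutant pools lay above the WT pools, but the symptomatic difference of 0.27 ± 0.20 was not called (limma adjusted p = 0.543).

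Slc15a3, a lysosomal transporter of histidine and small peptides, had 6.45, 7.77 and 8.33 in the mutant pools, against 5.60, 5.92 and 6.30 in the WT pools. All 3 mutant pools lay above the WT pools, and the symptomatic difference was 2.11 ± 0.27 (4.32-fold, limma adjusted p = 0.00519). Slc37a2, a sugar-phosphate exchanger of the endoplasmic reticulum, had 5.31, 7.05 and 7.72 in the mutant pools and 5.07, 5.40 and 5.72 in the WT pools. Its presymptomatic mutant value lay among the WT values and both later ones above them, with a symptomatic difference of 1.99 ± 0.27 (3.98-fold, limma adjusted p = 0.00716). Slc15a3 and Slc37a2 were also called in the end-stage pool alone, at 2.39 ± 0.31 (limma adjusted p = 0.014) and 2.33 ± 0.30 (limma adjusted p = 0.0137).

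Slc2a5, the fructose transporter GLUT5, which in brain marks microglia, had 8.39, 9.49 and 9.56 in the mutant pools, against 8.03, 7.85 and 8.48 in the WT pools. The symptomatic difference was 1.40 ± 0.23 (2.65-fold, limma adjusted p = 0.0144). Slc11a1, the phagosomal divalent metal transporter NRAMP1, had 5.31, 6.72 and 6.88 in the mutant pools and 5.26, 5.69 and 5.70 in the WT pools, a difference of 1.24 ± 0.21 (2.37-fold, limma adjusted p = 0.0176). For both genes the presymptomatic mutant value fell within the range of the WT pools and the symptomatic values above it. Slc66a3, a PQ-loop protein, had 7.87, 9.19 and 9.45 in the mutant pools, against 7.75, 8.45 and 7.62 in the WT pools. Its difference of 1.38 ± 0.27 (2.61-fold, limma adjusted p = 0.031) was measured against WT pools that themselves spread over an SD of 0.45 (n = 3).

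Of the falling genes, Slc7a10, the Asc-1 carrier of glycine, D-serine and other small neutral amino acids, had 9.45, 8.45 and 8.0 in the mutant pools, against 9.57, 9.18 and 9.55 in the WT pools. The presymptomatic mutant pool matched WT and both later pools lay below it, with a symptomatic difference of -1.21 ± 0.23 (2.31-fold lower, limma adjusted p = 0.0252) and an end-stage difference of -1.44 ± 0.26 (limma adjusted p = 0.0371). Slc2a6, the lysosomal hexose transporter GLUT6, had 5.87, 6.83 and 6.49 in the mutant pools and 7.81, 7.42 and 8.02 in the WT pools. All 3 mutant pools lay below all WT pools, and the symptomatic difference was -1.09 ± 0.24 (2.13-fold lower, limma adjusted p = 0.0463).

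The share of all genes called was not computed with a pool left out. In the comparison of both symptomatic pools, leaving out either mutant pool repeats the fit of the other pool alone and is no further check. The call count of the members depended on single pools. It was 5 without the onset mutant pool, 1 without the end-stage mutant pool, 3 without the presymptomatic WT pool, 5 without the onset WT pool and 4 without the end-stage WT pool. Slc7a7 was called in all 5 of these fits, and Slc15a3 and Slc37a2 in 4 of 5 each. Slc2a5, Slc66a3 and Slc7a10 were called in only 1 of 5 each, and Slc11a1 and Slc2a6 in 0 of 5. The directions of all these genes stayed the same.

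**Figure D2:**
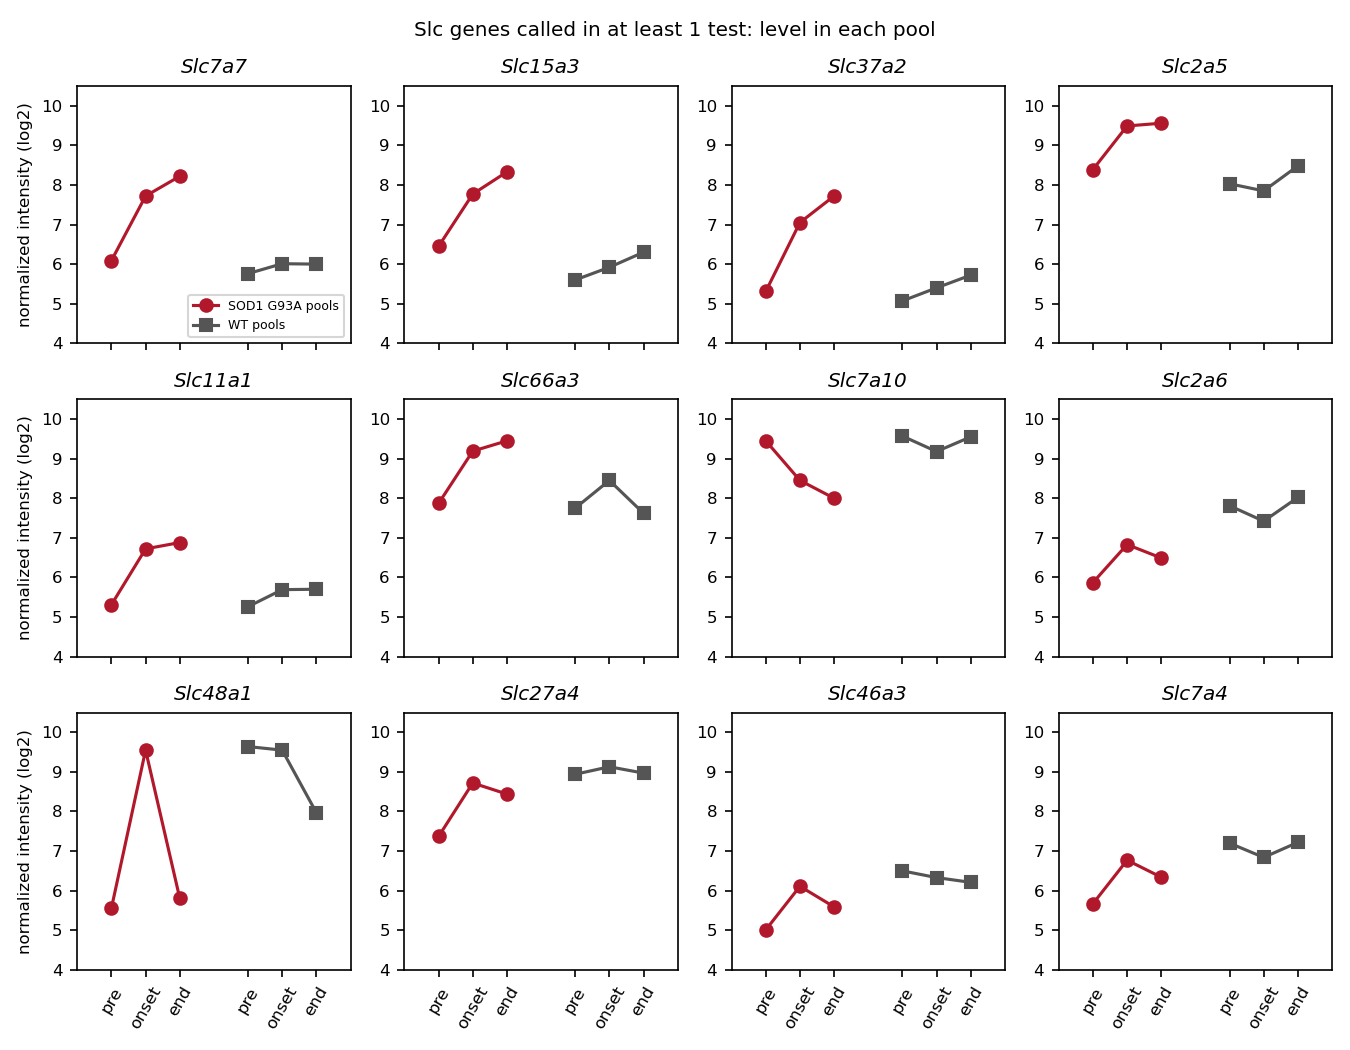
Level (log2 normalized intensity) of the 12 solute carrier genes called in at least 1 test, with the SOD1 G93A pools (red circles) left of the WT pools (grey squares) in each panel, and 1 point per pool. Lines join pools of different rats in the order of stage. Slc7a7, Slc15a3 and Slc37a2 reach 7.05 or more in both symptomatic mutant pools and stay at 6.30 or less in WT, whereas Slc48a1 is low at 5.56 and 5.81 in 2 mutant pools and at 9.55 in the onset mutant pool.

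Promoters of the risen genes are shown because these genes moved together. The sequences are those of RefSeq on GRCr8, from 250 bases before to 50 bases after the gene start, on the gene's strand. Of the 6 risen genes 4 matched: Slc2a5 at chr5:165865929-165866228 on the plus strand, and Slc37a2 at chr8:45160140-45160439, Slc66a3 at chr6:45515068-45515367 and Slc7a7 at chr15:31835634-31835933 on the minus strand; Slc11a1 and Slc15a3 are named only. Capitals mark matches on either strand to GAGGAA, the core of sites of the myeloid factor PU.1, and to TGANTCA, the AP-1 site.
Slc7a7: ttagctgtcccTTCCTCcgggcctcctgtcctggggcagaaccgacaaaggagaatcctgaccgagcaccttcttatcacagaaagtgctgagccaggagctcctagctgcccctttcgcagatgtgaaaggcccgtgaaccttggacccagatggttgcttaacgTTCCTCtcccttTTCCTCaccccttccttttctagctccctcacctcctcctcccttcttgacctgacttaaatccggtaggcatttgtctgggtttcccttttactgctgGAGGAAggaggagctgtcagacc
Slc37a2: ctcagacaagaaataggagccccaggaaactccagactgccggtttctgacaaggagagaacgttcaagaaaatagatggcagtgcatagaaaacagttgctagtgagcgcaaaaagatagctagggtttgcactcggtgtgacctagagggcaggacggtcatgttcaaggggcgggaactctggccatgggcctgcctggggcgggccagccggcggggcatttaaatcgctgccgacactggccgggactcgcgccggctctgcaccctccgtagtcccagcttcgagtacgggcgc
Slc2a5: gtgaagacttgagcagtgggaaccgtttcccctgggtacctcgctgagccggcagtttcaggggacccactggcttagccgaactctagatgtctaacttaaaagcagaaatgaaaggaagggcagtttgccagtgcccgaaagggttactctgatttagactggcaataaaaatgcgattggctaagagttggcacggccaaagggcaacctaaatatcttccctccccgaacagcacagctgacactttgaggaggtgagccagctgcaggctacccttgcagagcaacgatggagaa
Slc66a3: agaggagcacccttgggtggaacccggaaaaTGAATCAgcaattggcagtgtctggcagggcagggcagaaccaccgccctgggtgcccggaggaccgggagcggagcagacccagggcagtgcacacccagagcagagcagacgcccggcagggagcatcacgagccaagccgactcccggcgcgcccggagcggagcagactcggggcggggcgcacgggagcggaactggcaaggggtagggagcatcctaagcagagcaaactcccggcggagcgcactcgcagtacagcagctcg
Slc7a7 held 4 matches to GAGGAA, 3 of them as the reverse complement. Their first bases lay at -239, -84, -72 and 28, where the gene start counts as 1 and the base before it as -1. At least 1 match was held by 27.5% of 27457 promoters of the same length and by 29 of 144 members with a promoter (20.1%). Of the 4 risen genes shown, 1 held a match. At least 4 matches were held by 0.124% of all promoters and by 1 member, Slc7a7. The limit of 4 is the count of Slc7a7 itself, so that share is a description and no test of enrichment. Slc66a3 held TGAATCA at -219, a motif found in 7.33% of all promoters and in 6.25% of members. The E-box CACGTG, held by 6.65% of all promoters, the TATA box TATAAA, held by 14.3%, and a spaced pair of interferon-response motifs, held by 3.77%, were searched on both strands and had no match in these 4 windows. A match is a string of letters in a window and not a shown site, and the overlap of the motifs was not counted.

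Grouped by the cells they are known from, transporters of phagocytes held most of the calls. Those of neurons, astrocytes and brain endothelium had medians below 0 at each stage, lowest for neurons. No test compared the lists. They were chosen with earlier results of these data known, so the calls within a list are no independent evidence for its cell type. Of 12 detected members known from phagocytes, 7 lay above all 3 WT pools in both symptomatic mutant pools (17.6% of all genes did so). In the comparison of both symptomatic pools 5 were called higher and Slc2a6 lower. Genes called lower in the presymptomatic pool, given below, fall partly in this list as well. Their median stage-matched difference was 0.24 at the presymptomatic stage, 0.90 at onset and 0.37 at end stage. The list is mixed: Slc29a3, the lysosomal nucleoside transporter, had 10.01, 10.25 and 10.77 in the mutant pools and 9.77, 9.84 and 10.20 in the WT pools, higher at each stage but not called (0.57 ± 0.24, limma adjusted p = 0.262). Slc15a4, the other lysosomal peptide and histidine transporter, had 9.52, 9.30 and 9.43 in the mutant pools, against 9.72, 9.32 and 9.71 in the WT pools, and was not called (-0.22 ± 0.21, limma adjusted p = 0.65). The summed intensity of 13 microglia and macrophage markers was 9861, 34198 and 36374 units in the mutant pools, against 9326, 11177 and 11166 in the WT pools, and 10 of the 13 were called higher in the symptomatic pools. The part of these cells in the rise of the transporters was not tested.

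Of 12 detected members known from neurons, 6 lay below all WT pools in both symptomatic mutant pools (18.8% of all genes), 1 lay above them, and 0 were called. Their medians were -0.35, -0.30 and -0.45 over the 3 stages. Slc12a5, the chloride exporter KCC2 of neurons, had 12.06, 11.73 and 11.57 in the mutant pools, against 12.43, 12.13 and 12.45 in the WT pools. It was lower in all 3 mutant pools than in any WT pool, without a call (-0.69 ± 0.20, limma adjusted p = 0.114). Summed neuron markers stood at 43245, 34843 and 32233 units in the mutant pools and at 54220, 49304 and 54276 in the WT pools, and 2 of 13 were called lower; their part in these differences was not tested.

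Members known from astrocytes had medians of -0.12, -0.02 and -0.40 over 9 genes, with Slc7a10 the 1 called. Those of brain endothelium had -0.04, -0.08 and -0.13 over 10 genes and those of oligodendrocytes 0.00, -0.14 and -0.04 over 3 genes, with 0 calls in either list. Summed astrocyte markers were 37324, 34295 and 27567 units in the mutant pools and 40952, 35181 and 37386 in the WT pools. Oligodendrocyte markers summed to 41691, 33601 and 28633 units against 48090, 38335 and 38454. Endothelial markers summed to 5667, 6931 and 6824 units against 5379, 7689 and 6599. The part of these cells in the differences was not tested. Of 7 members known from the meninges, 4 lay above all WT pools in both symptomatic mutant pools (17.6% of all genes), with medians of -0.24, 0.11 and 0.61 and 0 calls. The summed meningeal and fibroblast markers were 23850, 36154 and 43438 units in the mutant pools and 26501, 33738 and 19696 in the WT pools, so the end-stage pair differed most in both; whether the amount of meninges in the pools had a part was not tested.

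**Figure D3:**
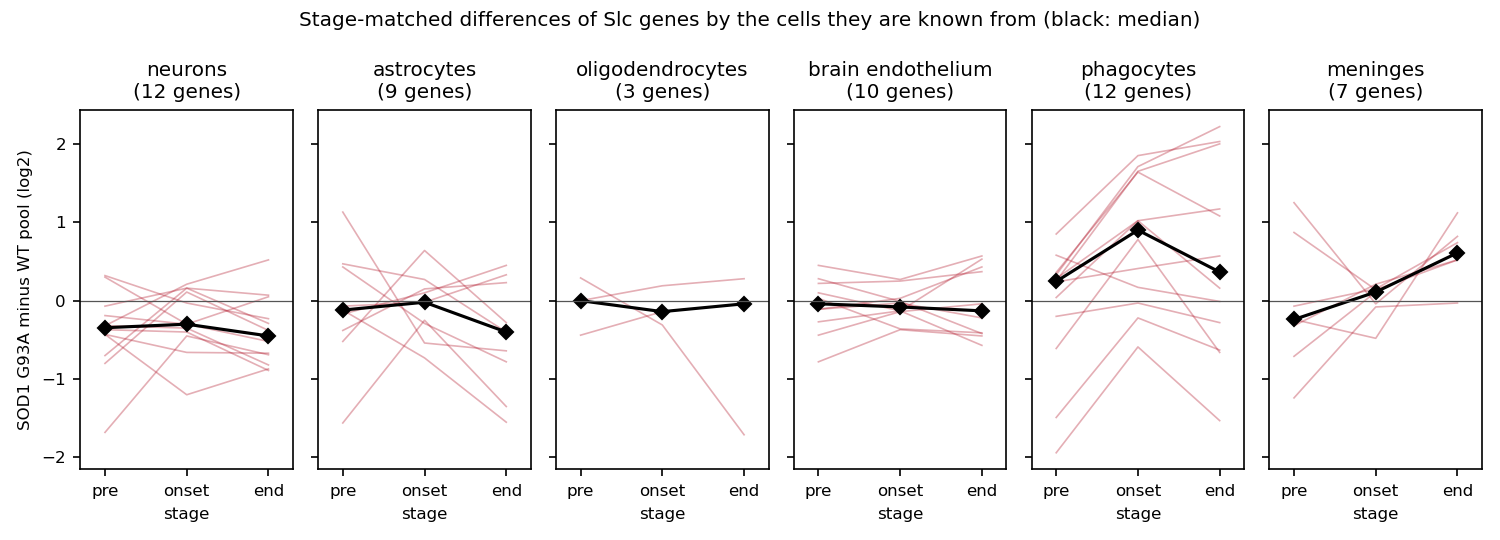
Stage-matched difference (SOD1 G93A minus WT pool, log2) of solute carrier genes at the presymptomatic stage, onset and end stage, in 6 lists by the cells they are known from. Each red line is a gene and black diamonds are the medians of the list. Phagocyte genes reach a median of 0.90 at onset and fan out to both sides at end stage, and neuron genes keep medians of -0.30 to -0.45.

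Among the neurotransmitter transporters 5 of 10 lay below all WT pools in both symptomatic mutant pools (18.8% of all genes), and 0 were called. Their medians were -0.13, -0.27 and -0.60 over the stages. Slc5a7, the choline transporter of cholinergic terminals, had 7.39, 5.19 and 6.08 in the mutant pools, against 7.82, 6.38 and 6.95 in the WT pools. It was the 1 member at least 2-fold lower at onset, but WT pools themselves spread widely, and the symptomatic difference of -1.41 ± 0.42 was not called (limma adjusted p = 0.121). Slc6a9, the glycine transporter GlyT1, had 8.61, 9.37 and 8.91 in the mutant pools and 10.17, 9.63 and 10.26 in the WT pools. All mutant pools lay below all WT pools, most at the presymptomatic stage (-1.56) and end stage (-1.35), without a call (limma adjusted p = 0.118).

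Slc17a6, the vesicular glutamate transporter VGLUT2, had 11.61, 11.24 and 11.08 in the mutant pools, against 11.93, 11.59 and 11.90 in the WT pools (-0.65 ± 0.20, limma adjusted p = 0.139). Slc6a15, a neuronal carrier of branched-chain amino acids, had 10.01, 9.74 and 9.39 in the mutant pools and 10.44, 10.40 and 10.07 in the WT pools (-0.74 ± 0.22, limma adjusted p = 0.118). Slc1a1, the neuronal glutamate transporter, was lower by less (-0.48 ± 0.19, limma adjusted p = 0.236). Slc1a3, the astrocyte glutamate transporter GLAST, had 11.15, 11.02 and 11.47 in the mutant pools against 11.23, 11.04 and 11.14 in the WT pools, and the groups overlapped. Slc6a13, a GABA and taurine transporter known from the meninges, was the 1 gene above all WT pools in both symptomatic pools, with 6.56, 7.28 and 7.95 in the mutant pools against 6.63, 7.13 and 7.21 in the WT pools (0.62 ± 0.27, limma adjusted p = 0.283).

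**Figure D4:**
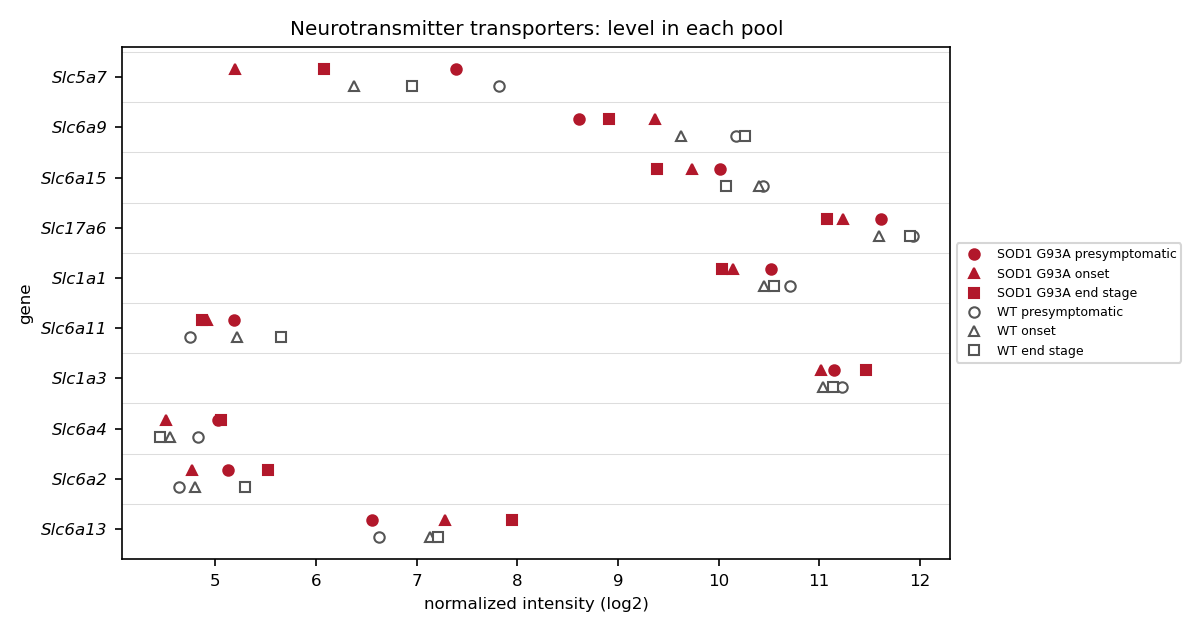
Level (log2 normalized intensity) of the 10 detected neurotransmitter transporters, with filled red symbols for SOD1 G93A pools above open grey symbols for WT pools in each row, and the shape giving the stage. The symptomatic red symbols lie left of all grey ones for Slc5a7, Slc6a9, Slc6a15, Slc17a6 and Slc1a1, and right of them for Slc6a13.

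The 4 transporters set apart by name had these values. The vesicular acetylcholine transporter Slc18a3 had 10.16, 8.72 and 8.07 in the mutant pools and 9.72, 9.23 and 10.00 in the WT pools, and the vesicular inhibitory amino acid transporter Slc32a1 had 6.23, 8.82 and 7.55 in the mutant pools and 9.50, 9.14 and 8.93 in the WT pools, called lower at the presymptomatic stage (limma adjusted p = 0.00656) and at end stage (limma adjusted p = 0.0333). The glycine transporter Slc6a5 and the astrocyte glutamate transporter Slc1a2 had stage-matched differences of -0.78 and -0.88 at end stage, without a call.

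Mitochondrial carriers leaned lower without a call. Of the 27 detected, 11 lay below all WT pools in both symptomatic mutant pools and 1, Slc25a35, above, where 18.8% and 17.6% of all genes did so. At onset and at end stage 18 of 24 compared carriers were lower in the mutant pool, and the medians were -0.16, -0.19 and -0.39 over the stages. The ADP/ATP translocase Slc25a4 had 12.34, 12.46 and 12.59 in the mutant pools, against 12.75, 12.83 and 12.99 in the WT pools. It was lower in every mutant pool than in any WT pool by a small amount (-0.33 ± 0.19, limma adjusted p = 0.429). The ornithine carrier Slc25a15 had 6.70, 6.78 and 6.67 in the mutant pools and 7.71, 7.22 and 7.37 in the WT pools, likewise without overlap (-0.71 ± 0.21, limma adjusted p = 0.127). The uncoupling protein family members Slc25a14 and Slc25a27 differed by -0.91 ± 0.31 (limma adjusted p = 0.172) and -0.77 ± 0.25 (limma adjusted p = 0.162), and the citrate carrier Slc25a1 by -0.56 ± 0.22 (limma adjusted p = 0.233). The phosphate carrier Slc25a3 had 12.40, 11.75 and 11.91 in the mutant pools and 12.36, 11.86 and 12.19 in the WT pools, with overlap. Slc25a30 was measured by a second, dimmer probe whose end-stage difference was 0.48, against -0.69 for the brighter one, so its direction differs between probes; the 2 probes of the bicarbonate cotransporter Slc4a4, at -0.40 and 0.28, differed in direction as well.

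**Figure D5:**
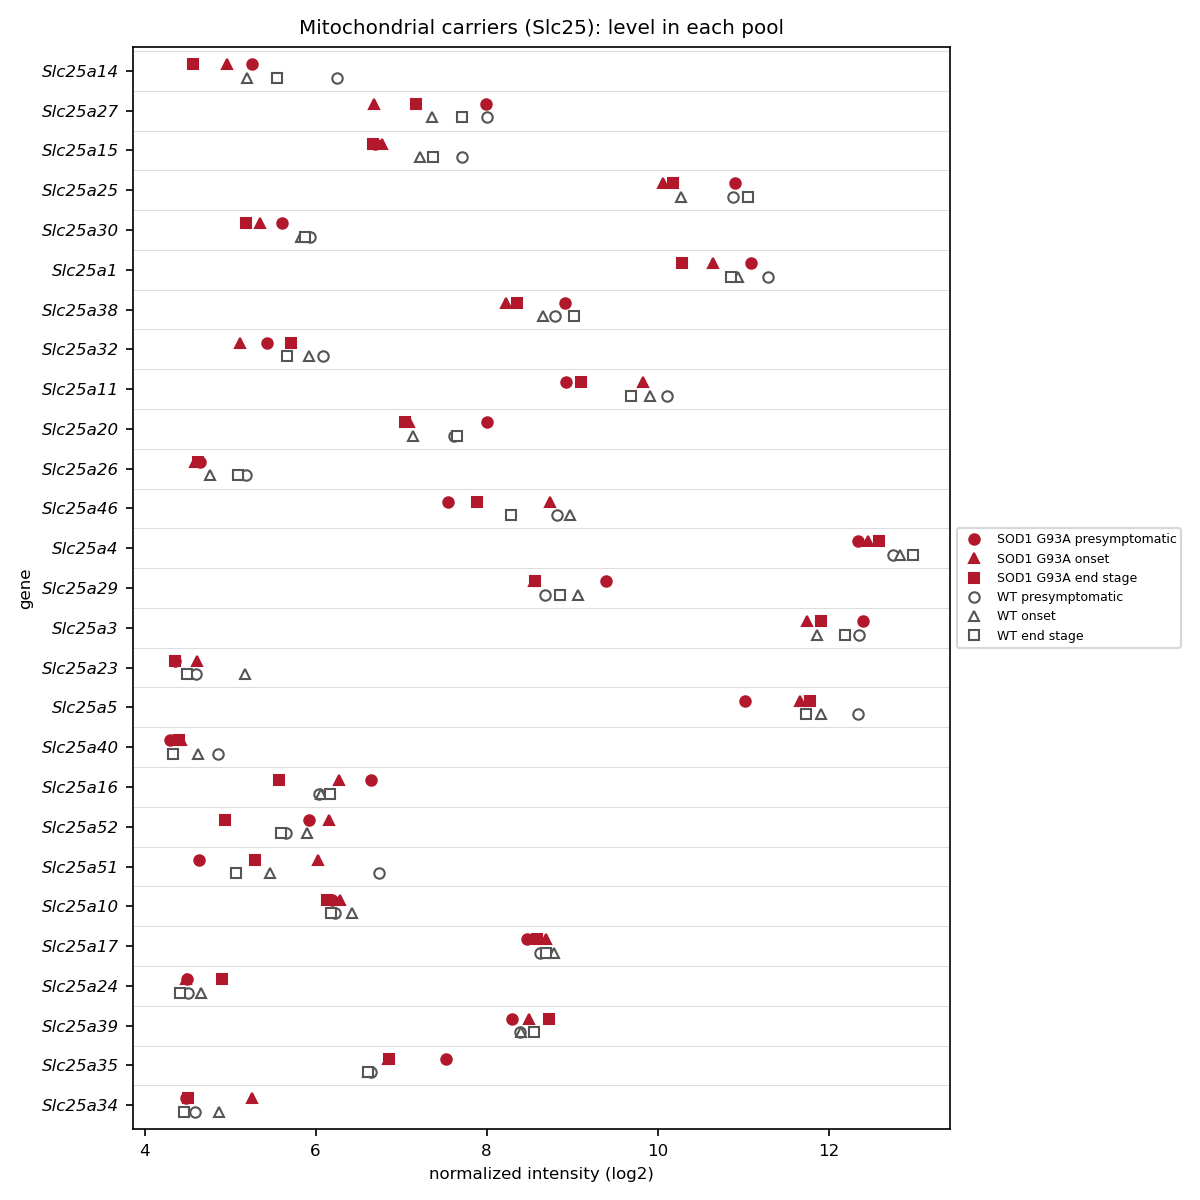
Level (log2 normalized intensity) of the 27 detected mitochondrial carriers of the Slc25 family, in order of the symptomatic difference, with filled red symbols for SOD1 G93A pools above open grey symbols for WT pools in each row. Symptomatic red symbols lie left of all grey symbols in 11 rows, by less than 1 log2 unit in the fit of both symptomatic pools, and right of them for Slc25a35.

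At the presymptomatic stage, 5 members were called lower in the mutant pool against the 3 WT pools (1.9% of all genes) and 0 higher (0%): Slc27a4, Slc2a6, Slc46a3, Slc48a1 and Slc7a4. Slc27a4, a fatty acid transport protein, had 7.37, 8.72 and 8.44 in the mutant pools, against 8.94, 9.13 and 8.97 in the WT pools, so the presymptomatic pool was low and the later pools came closer to WT (presymptomatic -1.64 ± 0.23, 3.12-fold lower, limma adjusted p = 0.0195). Slc2a6, given above, had a difference of -1.88 ± 0.29 (limma adjusted p = 0.0273). Slc46a3, a lysosomal transporter, was not detected in the presymptomatic mutant pool and was there at least 2.53-fold lower than the mean of the WT pools (limma adjusted p = 0.0423). Slc7a4, a relative of the cationic amino acid transporters, had 5.67, 6.77 and 6.34 in the mutant pools and 7.20, 6.84 and 7.22 in the WT pools (-1.42 ± 0.26, limma adjusted p = 0.0448).

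Slc48a1, a heme transporter of endosomes and lysosomes, swung more than any other member. It had 5.56, 9.55 and 5.81 in the mutant pools, against 9.64, 9.55 and 7.97 in the WT pools, with an SD of 0.94 over the WT pools (n = 3). The onset pair was equal, and the calls at the presymptomatic stage (-3.49 ± 0.62, limma adjusted p = 0.0432) and at end stage (-3.24 ± 0.62, limma adjusted p = 0.0439) rest on single pools. Slc48a1, Slc24a2, Slc35e3 and Slc25a51 were the 4 members that differed at least 2-fold between the end-stage and the presymptomatic WT pool. All 4 were also at least 2-fold lower in the presymptomatic mutant pool than in that same WT pool. Both differences use the presymptomatic WT pool, which was the highest WT pool for each of the 4, so this overlap is partly built in. Slc24a2, a potassium-dependent sodium-calcium exchanger of neurons, had 6.91, 7.86 and 6.02 in the mutant pools and 8.58, 8.31 and 6.72 in the WT pools. Slc35e3 had 4.50, 6.57 and 4.86 in the mutant pools and 6.60, 6.02 and 5.00 in the WT pools. Slc25a51, the mitochondrial NAD carrier, had 4.64, 6.03 and 5.29 in the mutant pools and 6.74, 5.47 and 5.07 in the WT pools.

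Of the 19 members at least 2-fold lower at the presymptomatic stage, 13 were also lower at onset and 16 at end stage, with medians of -0.08 and -0.63. Over the 643 genes at least 2-fold lower at that stage, 43.1% were lower at onset and 73.9% at end stage, where all 8752 genes gave 53.8% and 53.5%. The other genes low at the presymptomatic stage thus also lay mostly below WT at end stage. Slc3a1, the heavy chain of cystine and basic amino acid transport, had the second lowest presymptomatic difference, with 4.67, 5.93 and 5.32 in the mutant pools against 6.96, 6.0 and 6.17 in the WT pools, at least 3.88-fold lower in the presymptomatic pair because the mutant pool did not detect it. The 4 members at least 2-fold higher at that stage were Slc66a1, the lysosomal exporter of cationic amino acids (1.34), the organic cation transporter Slc22a2 (at least 1.94-fold, not detected in WT), the glutamine transporter Slc38a3 (1.13) and Slc16a13 (1.05); 0 were called. Slc66a1 had 6.66, 6.13 and 6.74 in the mutant pools, against 5.32, 5.57 and 5.76 in the WT pools, with all mutant pools above all WT pools and no call at end stage (limma adjusted p = 0.06). Without the onset WT pool 0 members were called at the presymptomatic stage, and without the presymptomatic or the end-stage WT pool 5 and 7. Over these 3 fits Slc7a4 kept its call in 0 (-1.54 to -1.35) and Slc46a3 in 1 (-1.40 to -1.26), so the counts of 5 and 7 include other members.

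At onset, beside Slc7a7, Slc15a3, Slc37a2, Slc2a5 and Slc11a1, the lactate exporter Slc16a3 (1.02), the zinc importer Slc39a4 (at least 1.75-fold) and Slc38a10 (1.11) were at least 2-fold higher than in the WT pool of that stage by their measured difference. Slc16a3 had 6.53, 6.82 and 6.96 in the mutant pools and 6.25, 5.80 and 6.79 in the WT pools, so the onset difference came with a low WT value. Slc39a4 was detected in 2 mutant pools and 1 WT pool, with 5.14, 5.56 and 5.83 in the mutant pools against 5.03, 4.50 and 4.76 in the WT pools. Its symptomatic difference was not called (0.93 ± 0.22, limma adjusted p = 0.065). No call at onset was kept when any 1 WT pool was left out, with adjusted p for Slc7a7 of 0.0525 to 0.173.

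At end stage 3 members were called higher (3.16% of all genes) and 2 lower (0.56%), namely Slc7a7, Slc15a3 and Slc37a2, and Slc7a10 and Slc48a1. Those at least 2-fold apart in the end-stage pair also included Slc66a3 (1.84), Slc11a1 (1.17), Slc47a1 (at least 2.17-fold), Slc2a5 (1.08) and Slc39a4 (at least 2.10-fold) on the higher side. On the lower side stood Slc5a11 (-1.71), Slc2a6 (-1.53), Slc6a9 (-1.35) and the anion exchanger Slc4a3 (-1.10), beside the called genes. Slc5a11, a sodium-dependent inositol transporter known from oligodendrocytes, had 8.23, 6.63 and 6.36 in the mutant pools, against 7.94, 6.93 and 8.07 in the WT pools. Its WT value at onset lay near the symptomatic mutant values, and the symptomatic difference of -1.16 ± 0.33 was not called (limma adjusted p = 0.115). Summed skeletal muscle markers were 3208, 5220 and 1606 units in the mutant pools and 3408, 5050 and 8514 in the WT pools, and the part of muscle RNA in the end-stage differences was not tested. Slc2a4, the glucose transporter GLUT4 of muscle and fat, had 6.78, 5.12 and 5.80 in the mutant pools and 5.82, 6.11 and 6.47 in the WT pools. Without the onset WT pool 0 members were called at end stage, and without the presymptomatic or the end-stage WT pool 4 and 7. Over these 3 fits Slc7a10 kept its end-stage call in 0, with differences of -1.56 to -1.37. Slc7a7, Slc15a3, Slc37a2 and Slc48a1 kept theirs in 2 of 3 each.

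The other roles held few called genes. Roles largely follow the symbol family, so the role of a gene need not match its known substrate. Calls by role are given here for both symptomatic pools together. Calls of single mutant pools, among them those lower at the presymptomatic stage, are given above and fall partly in the same roles. Among 20 metal ion transporters 1 was called, Slc11a1, with medians of 0.04, 0.04 and -0.02. The iron exporter Slc40a1 had 7.98, 6.95 and 7.05 in the mutant pools and 7.95, 7.31 and 7.47 in the WT pools (-0.57 ± 0.23, limma adjusted p = 0.252). Among 29 genes grouped as amino acid transporters, Slc7a7 and Slc66a3 were called higher and Slc7a10 lower, with medians of 0.17, 0.01 and -0.18. The taurine transporter Slc6a6 had 8.34, 8.41 and 9.04 in the mutant pools against 8.32, 7.66 and 8.24 in the WT pools (0.65 ± 0.28, limma adjusted p = 0.274), and the glutamine transporter Slc38a2 had 11.74, 11.41 and 11.74 in the mutant pools against 11.99, 12.07 and 12.27 in the WT pools (-0.53 ± 0.20, limma adjusted p = 0.222).

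Among 12 sugar transporters Slc2a5 was called higher and Slc2a6 lower, with medians of 0.34, -0.14 and -0.44, so the 2 hexose transporters of the phagocyte list moved in opposite directions. The main glucose transporter of the barrier, Slc2a1, was detected on 1 array only and allows no comparison. Nucleotide sugar and nucleoside transporters had medians of 0.04, 0.21 and -0.03 over 17 genes, and chloride, bicarbonate, proton and calcium transporters 0.10, -0.06 and -0.29 over 21 genes, with 0 calls for the symptomatic pools in either. The monocarboxylate transporters, with 7 genes, had medians of 0.10, -0.01 and -0.04; Slc16a1, which carries lactate, had 9.83, 10.38 and 10.21 in the mutant pools and 10.28, 10.52 and 10.26 in the WT pools. Lipid, choline and phosphate transporters (13 genes) had medians of 0.21, 0.05 and 0.02, with Slc37a2 called for the symptomatic pools. Organic ion, drug, peptide, bile acid and vitamin transporters (21 genes) had -0.24, 0.00 and -0.12, with Slc15a3 called for the symptomatic pools. Both roles also held genes called lower in single mutant pools. Slc22a18, an organic cation transporter-like gene of the last list, had 6.94, 7.50 and 7.88 in the mutant pools, against 5.95, 6.84 and 6.88 in the WT pools; all mutant pools lay above all WT pools, without a call (1.13 ± 0.31, limma adjusted p = 0.0959). The symbols Slc4a1ap and Slc7a6os match the naming rule but name an adaptor protein and a gene on the opposite strand rather than carriers, and neither was called.

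Other transporter families give the frame for these counts. Of 28 detected ABC transporters, which pump substrates with ATP, Abcb4 was called higher in the symptomatic pools (1.06, limma adjusted p = 0.0201) and Abcd2, a peroxisomal fatty acid transporter, lower (-0.87, limma adjusted p = 0.0385). In the single mutant pools, Abcb4 (1.17, limma adjusted p = 0.0439) and Abcb1b, detected in no WT pool (at least 2.81-fold, limma adjusted p = 0.0211), were called higher at end stage. Abcf2 (-3.43, limma adjusted p = 0.0105) and Abcb8, not detected in the mutant pool (at least 1.72-fold, limma adjusted p = 0.0384), were called lower at the presymptomatic stage. Of 7 organic anion transporting polypeptides, 3 Na,K-ATPase subunits and 5 aquaporins, 0 were called in any of the 5 tests. With all 6 pools and stage as a block, limma called 0 members and 0 genes in all, the smallest adjusted p being 0.287 among members, while 30 members (16.6%) and 11.2% of all genes had an unadjusted p below 0.05. With either presymptomatic pool left out, the number of called members rose from 0 to 10, and with either onset pool left out to 1.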

How the data were processed

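Total RNA of 5 rats per group was pooled and 750 ng of each pool was biotin-labelled for 1 Illumina array, per the labels' protocols. The deposited intensity values and the detection p-value beside each were written by the authors with BeadStudio 3.2.6, per the submitters' processing notes; the intensities had been background-subtracted and scaled before deposit, and 0 columns were left unused. The authors' deposited normalized intensity table served as an alternative. Gene symbols came from the platform's probe table (13192 of 22226 probes have 1 symbol), after the probe IDs were sorted as text; the RefSeq gene table held all 181 members and changed 0 symbols.

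Values were computed with limma 3.58.1 in R 4.3.3: normexp background correction, with each array's noise mean and SD from a regression of intensity on the normal quantile of the detection p (0.05 to 0.95), an offset of 16, log2 and quantile normalization. The neqc method infers a noise SD of 91.8 to 159 units from these already subtracted values, against 6.52 to 8.46 by regression, so it was kept as an alternative. Probes with a detection p below 0.01 on at least 1 array were kept (12711), and the brightest stood for its gene. Fits were limma's lmFit and eBayes, two-sided, with 2 residual degrees of freedom (3 for both symptomatic pools together). The 3 WT pools stood in for replicates despite their different stages, a lone mutant pool was assumed to vary like them, and p-values measure only the spread between these pools. A bound ("at least") takes as the dim side whichever is larger, its own value or the lowest level of any detected probe on that array. The fits were tested on simulated data.

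The members, lists and tests were chosen with earlier results of these data known. Named are the genes called in any test, the 10 with the largest stage-matched difference in each direction as far as space allowed, 2 to 4 genes of each list, the 4 genes set apart, and genes whose probes disagree by 2-fold or more; partner or related genes such as Slc3a2, Slc15a4, Slc1a3, Slc2a1 and Slc2a4 were added after their values were seen. Alternatives were other background corrections, scalings, offsets, filters, priors and probe rules, the probe IDs as deposited, and leaving out each pool.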

Additional observations from a re-analysis of the deposited data

Results flagged for a closer look

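Slc38a10, a relative of the glutamine transporters, differed at least 2-fold in opposite directions between stages. The stage-matched difference was -1.23 at the presymptomatic stage, where the mutant pool did not detect it, and 1.11 at onset. Its levels were 4.75, 6.58 and 5.03 in the mutant pools and 5.98, 5.48 and 5.67 in the WT pools, and the difference between stages was not tested.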

How the results depend on the processing

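The number of called members depended on the processing, while the directions of the called differences changed only with the order of the probe IDs. All 170 values of the 19 called differences kept their direction under the other backgrounds, scalings, offsets, filters, priors and probe rules, and 107 kept the call; of 73 values with 1 pool left out, 73 kept the direction and 31 the call. The end-stage count of 5 became 3 with neqc noise, 3 without background correction, 0 on the deposited normalized values, 12 with a 75th-percentile shift, 3 with an offset of 50, 8 among genes detected on all 6 arrays, 1 with no detection filter and 13 with a trended, robust prior, and ran from 0 to 7 with a WT pool left out. In the same order the onset count of 1 became 0, 0, 0, 3, 0, 3, 0 and 3, and was 0 with the IDs as deposited and with each WT pool left out. The presymptomatic count of 5 became 0 with neqc, 0 without background correction, 0 on the deposited values, 1 with an offset of 50, 0 with no filter, 8 with the trended prior and 3 with the IDs as deposited, and ran from 0 to 7 with a WT pool left out. The count of 8 for both symptomatic pools became 0 with neqc, 1 with no filter, 14 with the trended prior and 5 with the IDs as deposited, and ran from 1 to 5 with a pool left out. The count of 0 with stage as a block ran from 0 to 10 with a pool left out and stayed 0 with no stage block. The cause of these shifts was not tested, except that the filters change how many probes are tested. The share of all genes called was not computed for these settings. A shift particular to the members thus cannot be told apart from one over all genes.

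Under neqc the stage-matched 2-fold counts were 0 higher and 8 lower (presymptomatic), 1 and 0 (onset) and 4 and 3 (end stage); with an offset of 50 they were 0 higher at the presymptomatic stage, 4 higher and 0 lower at onset and 5 higher at end stage. Detection on all 6 arrays left 12 lower at the presymptomatic stage, the deposited values gave 14 higher and no background correction 10 lower at end stage. The median over all members moved to 0.08 (deposited values) and 0.14 (75th-percentile shift) at the presymptomatic stage, and to -0.02 (neqc), -0.02 (deposited values) and -0.18 (75th-percentile shift) at end stage; the shift moved the median of all genes to 0.25, -0.05 and -0.13 over the stages. Of 384 list medians under other settings 85 moved by more than the spread of WT pools and 16 of these changed sign, among them the presymptomatic medians of neurotransmitter transporters (0.13) and mitochondrial carriers (0.03) under the 75th-percentile shift. With the IDs as deposited, other probes carry the names: Slc37a2 then gave -0.41 at end stage and -0.47 for both symptomatic pools, Slc7a10 0.22 and 0.32, Slc7a7 -0.07 at end stage, and Slc2a5 -0.11 and Slc66a3 -0.22 for both symptomatic pools. The paired analysis is the fit with stage as a block, which pairs the mutant and WT pool of each stage; the labels give no replicate numbers.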
